A study of Mus musculus with 12 samples.

Results

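The peaks with the highest read coverage in H3K9me3 libraries of mouse liver are described here. They are the 500 autosomal peaks with the highest Pileup in each of the 6 lists called over input, 3000 peaks among 1509802 autosomal peaks. They were chosen by Pileup, the mean fragment coverage that the peak caller gave a peak, so that coverage itself is no result, and it was not compared between lists. Width, fold over input and listed p-value come from the same peak call. They are given as description, beside the same values over all autosomal peaks, with no test.

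H3K9me3, trimethylated lysine 9 of histone H3, had been profiled by ChIP-seq in C57BL/6 mice with hepatocyte inactivation of Dio2 (Alb-D2KO), the gene of the type 2 deiodinase that makes the active thyroid hormone T3. Alb-D2KO mice carry a floxed Dio2 and a Cre recombinase driven by the albumin promoter. Control mice are labelled Cre and carry the same Cre without loss of Dio2. Livers were taken at postnatal day 1 (P1), postnatal day 5 (P5) and in the adult. The albumin promoter is active in hepatocytes, so the other cells of the liver keep Dio2 in Alb-D2KO mice. There was 1 H3K9me3 and 1 input library in the labels for each of the 6 combinations of genotype and age, each from a pool of 3 livers at P1 and P5 and from individual livers in the adult. Genotype and library therefore cannot be told apart at any age, and no p-value was computed. The lists hold no expression values, so the liver label could not be checked against marker genes, and they hold no read counts, so depth is unknown.

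H3K9me3 is laid down by SUV39H, SETDB1 and related methyltransferases, and is read by HP1 proteins. It is the hallmark of constitutive heterochromatin, above all the satellite repeats beside the centromeres, and it also silences retrotransposons and clusters of zinc-finger genes. Reads from a repeat can be placed at any of its copies in the reference genome. Where the assembly holds fewer copies than the chromosomes do, reads from the missing copies can pile up on the ones that are present. How far this set the values given here was not tested.

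Most peaks in the first 20 ranks of a list held sequence of a 234-base unit. The clearest tandem copy lay in an intron of the lncRNA Gm33838, where a base equalled the base 234 positions further on in 96.9% of comparisons. This length is that of the known repeat of mouse major satellite, the main DNA of pericentromeric heterochromatin. The unit is shown first, and then the stretch of 120 bases most like it in other regions that ranked near the top. Sequences are from the GRCm38 (mm10) reference, and each is written in the direction that matches the unit. In the lines after the first, capitals mark bases identical to the unit.
Gm33838 intron, chr9:35305244-35305477, plus strand: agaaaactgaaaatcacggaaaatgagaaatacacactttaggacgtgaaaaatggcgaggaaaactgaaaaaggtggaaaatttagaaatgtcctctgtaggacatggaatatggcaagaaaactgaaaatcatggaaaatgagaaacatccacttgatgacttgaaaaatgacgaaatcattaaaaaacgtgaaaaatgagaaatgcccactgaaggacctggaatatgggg
Gm10800, chr2:98667078-98667197, plus strand, 97.5% identical: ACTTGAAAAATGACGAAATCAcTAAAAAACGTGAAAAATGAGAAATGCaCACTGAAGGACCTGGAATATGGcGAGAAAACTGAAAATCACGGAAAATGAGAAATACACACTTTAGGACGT
Gm10719 region, chr9:3000513-3000632, minus strand, 98.3% identical: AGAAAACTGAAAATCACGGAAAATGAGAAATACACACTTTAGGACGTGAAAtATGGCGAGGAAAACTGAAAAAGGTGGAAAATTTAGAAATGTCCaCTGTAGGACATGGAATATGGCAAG
Gm21738, chr14:19418780-19418899, plus strand, 97.5% identical: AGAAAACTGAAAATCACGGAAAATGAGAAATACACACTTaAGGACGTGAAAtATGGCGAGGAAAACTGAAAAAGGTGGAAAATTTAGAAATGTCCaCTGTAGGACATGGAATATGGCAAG
Mdga2 intron, chr12:67059365-67059484, plus strand, 84.2% identical: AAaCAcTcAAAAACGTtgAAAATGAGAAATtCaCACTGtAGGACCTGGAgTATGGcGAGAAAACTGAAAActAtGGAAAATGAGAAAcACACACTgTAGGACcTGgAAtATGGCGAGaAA
Intergenic, chr3:56575571-56575690, minus strand, 83.3% identical: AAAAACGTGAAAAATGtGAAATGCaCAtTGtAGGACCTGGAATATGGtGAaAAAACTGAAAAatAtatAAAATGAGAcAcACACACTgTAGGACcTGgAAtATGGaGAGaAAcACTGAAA

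A peak was said to hold the unit where at least 10% of its 12-base words were in it, on either strand. By this measure 89 of the 3000 peaks held it, in 12 merged regions on 7 chromosomes, and 11 of these regions had a member of all 6 lists. Of the 1509802 autosomal peaks of the 6 lists, 89 held the unit, and every one of them was among the 500 of its list. They filled 11 to 16 of the first 20 ranks of a list, 80 of 120 in all, with a median rank of 8. The unit was taken from a top-ranked peak, so that its place at the top is a description.

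Gm10800, a gene model on chromosome 2, held the peak with the highest Pileup in all 6 lists. The peak lay at its transcription start, at 98666259 to 98667294 over the 6 lists, and was 1018 to 1036 bp wide. Its Pileup was 21843 in control P1, where the 500th peak had 12.24 and the peak after it 12.22. In Alb-D2KO P1, 2 peaks left out had the same Pileup as the 500th, 12.46. The peaks on either side of the limit differed in width without order, with 4208 bp inside and 33217 bp outside in control P1, and 22752 bp inside and 243 bp outside in control P5.

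The fold over input at Gm10800 was low beside that coverage. It was 1.77 in control P1, 1.89 in Alb-D2KO P1, 1.99 in control P5, 2.05 in Alb-D2KO P5, 1.46 in control adult and 1.52 in Alb-D2KO adult. Both adult values lay below the 4 neonatal ones. Over all peaks with the unit, 12 to 18 per list, both adult values were again the lowest, while the neonatal lists had another order. The median fold was 2.61 in control P1, 2.78 in Alb-D2KO P1, 2.67 in control P5 and 2.76 in Alb-D2KO P5. It was 1.98 in control adult and 2.02 in Alb-D2KO adult. With 1 library per group, age and library cannot be told apart in these values.

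The other regions near the top changed places by a few ranks. The Gm33838 intron ranked 2 in the 4 neonatal lists and 3 in both adult lists, at 264 to 332 bp wide. Gm10801, beside Gm10800 on chromosome 2 (98662244 to 98662891), ranked 5 in both P1 lists, 4 and 3 at P5, and 2 in both adult lists. On chromosome 9, next to the centromere-proximal end, the region at 3000259 to 3022627 with Gm10719 and Gm11168 had median rank 4, and its neighbour at 3023439 to 3038291 with Gm10717 and Gm10715 had median rank 6. Gm21738 on chromosome 14 (19415713 to 19419440) ranked 7 to 10.

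**Figure D1:**
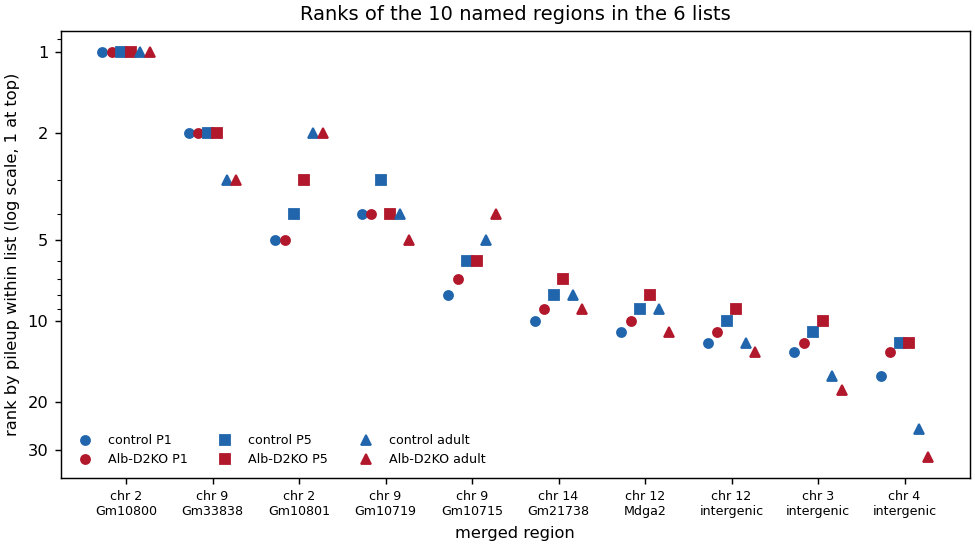
Rank by Pileup within its list (log scale, 1 at the top) of the 10 merged regions with a member of all 6 lists and the smallest median rank; circles are P1, squares P5 and triangles adult, blue control and red Alb-D2KO. The Gm10800 region ranks 1 throughout, and the intergenic region on chromosome 4 runs from 12 to 32, with both adult lists lowest.

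The last regions of the 10 were less like the unit. They were an intron of Mdga2, a cell adhesion molecule, on chromosome 12 (67059182 to 67059888, median rank 9.5), and intergenic places on chromosome 12 (74803877 to 74804500), chromosome 3 (56575445 to 56575748) and chromosome 4 (3089543 to 3091559). Their best stretch of 120 bases was 80.8% to 84.2% identical to the unit, and the one on chromosome 4 fell short of the 10% of words. The median 31-base window of each had 1 position in the reference. Ank1, the gene of red cell ankyrin, had a peak with the unit, 245 to 320 bp wide, at its start on chromosome 8, which ranked 27 to 51 with a fold of 1.43 to 3.61.

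One place near the top was listed at P1 alone, and it was named after its values were seen. A peak on chromosome 12 at 3109896 to 3110083, with 61.9% of its words in the unit, ranked 3 in both P1 lists. No peak was listed there at P5 or in the adult, in either genotype. The P1 peaks were 184 bp wide in control and 188 bp in Alb-D2KO. No autosomal peak of any kind was narrower than 196 bp in control P5 or 194 bp in Alb-D2KO P5. In control adult and Alb-D2KO adult the narrowest had 181 and 182 bp. Whether the absence at P5 reflects this lower limit of width was not tested.

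Far more of the peaks held other repeated sequence. To measure it, 20 evenly spaced windows of 31 bases were taken from each peak, and their exact positions were counted in the whole reference. A peak was called multi-copy where at least 50% of its windows had 10 or more positions, single-copy where the median window had fewer than 2, and low-copy otherwise. Of 500 peaks, 272 were multi-copy in control P1 (54.4%, 95% Wilson interval 50.02 to 58.72), 272 in Alb-D2KO P1, 250 in control P5, 239 in Alb-D2KO P5 (47.8%, 43.5 to 52.2), 250 in control adult and 270 in Alb-D2KO adult. The intervals cover counting error only. The share over all autosomal peaks was 14.7% to 15.8%. Low-copy peaks made up 22% to 31.2% and single-copy peaks 17.8% to 23.6%.

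**Figure D2:**
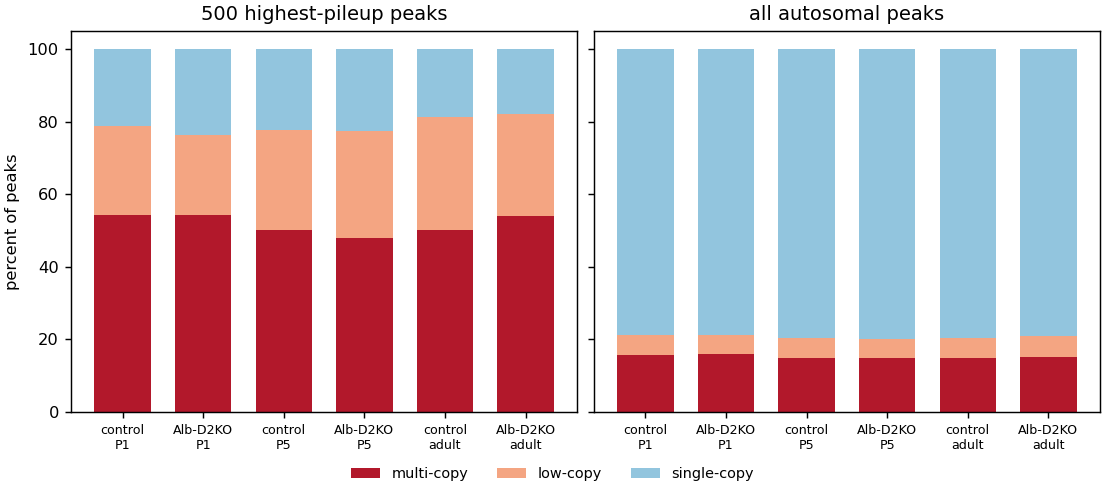
Percent of peaks of each list that are multi-copy, low-copy and single-copy in the reference genome, for the 500 highest-pileup peaks (left) and all autosomal peaks (right). Multi-copy sequence makes up 47.8% to 54.4% of the first and 14.7% to 15.8% of the second in every list.

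Multi-copy members had more positions than multi-copy peaks at large. The median window of multi-copy members had 3088 to 4094 positions by list, and that of all multi-copy autosomal peaks 592 to 731. Between 66.2% and 84.7% of the bases of the median member were masked as repeat in the reference, against 29.5% to 31.6% for all autosomal peaks. A tandem arrangement, in which bases equalled those 2 to 300 positions further on in at least 75% of comparisons, was found in 36 to 50 members per list (7.2% to 10%) and in 0.108% to 0.132% of all autosomal peaks. Base composition was closer, with a median GC content of 40.6% to 41.8% in members and 37.7% to 38.5% in all autosomal peaks.

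As an example, an intergenic region on chromosome 4 with a member of all 6 lists and 100 or more positions was taken, and the stretch that most others shared is shown with its counterparts elsewhere. The sequence is known as part of LINE-1, the most abundant retrotransposon of the mouse, although no repeat annotation was used here. In the lines after the first, capitals mark bases identical to the chromosome 4 stretch.
Intergenic, chr4:55866572-55866691, plus strand: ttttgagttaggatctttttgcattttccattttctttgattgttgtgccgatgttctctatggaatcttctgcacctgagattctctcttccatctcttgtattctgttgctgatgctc
Counterpart, chr3:139566530-139566649, minus strand, 100% identical: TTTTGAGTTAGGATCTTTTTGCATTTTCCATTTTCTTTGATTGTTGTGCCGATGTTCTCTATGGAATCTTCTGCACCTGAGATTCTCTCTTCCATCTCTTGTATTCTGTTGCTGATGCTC
Counterpart, chr8:86216959-86217078, minus strand, 99.2% identical: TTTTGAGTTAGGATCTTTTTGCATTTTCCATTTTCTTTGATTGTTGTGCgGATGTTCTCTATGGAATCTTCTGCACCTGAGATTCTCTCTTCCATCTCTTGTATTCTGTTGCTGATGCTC
At least 50% of the 15-base words of the chromosome 4 peak were also in 24 other regions on 13 chromosomes, of which 7 had a member of all 6 lists.

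Sharing of this kind was frequent. Of the 826 merged regions, 550 (66.6%) shared at least 30% of the 15-base words of the smaller peak with a region on another chromosome. Another 107 shared it only with regions of their own chromosome, and for 105 of these the partner lay within 5 Mb. The remaining 169 shared it with no other region. Regions that share sequence can receive the same reads, so they are not separate observations of H3K9me3.

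The fold over input set multi-copy members apart, while low-copy and single-copy members had no fixed order. In each list the median fold was higher in multi-copy members, at 2.66 to 3.14, than in low-copy members, at 1.65 to 2.08, or single-copy members, at 1.71 to 2.19. Over all autosomal peaks the medians of these classes lay within 1.83 to 1.92, 1.81 to 1.88 and 1.76 to 1.83. The peak with the lowest fold among all autosomal peaks of a list, between 1.09 and 1.22, was a member in every list, and so was the peak with the highest, between 6.40 and 8.12. Of the 500 members, 289 to 364 had a listed q-value below 0.05 (354 in control P1, 364 in Alb-D2KO P1, 326 in control P5, 294 in Alb-D2KO P5, 300 in control adult and 289 in Alb-D2KO adult). The background was 0.206% of autosomal peaks in control P1, 0.227% in Alb-D2KO P1, 0.185% in control P5, 0.176% in Alb-D2KO P5, 0.204% in control adult and 0.185% in Alb-D2KO adult, and since Pileup enters the q-value nothing is read from it.

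Members were wider than peaks at large and more varied in width. The median was 1318 bp in control P1, 1295 bp in Alb-D2KO P1, 1412 bp in control P5, 1512 bp in Alb-D2KO P5, 1329 bp in control adult and 1191 bp in Alb-D2KO adult, against 807 to 1055 bp over all autosomal peaks. The lower quartile lay at 419 to 556 bp, against 431 to 525 bp over all autosomal peaks. It was below that of all peaks in control P1 (419 against 486 bp) and Alb-D2KO P1 (431 against 511 bp). In control adult it was above (556 against 441 bp), and in the other lists it was close. The upper quartile was 3045 to 3969 bp against 1530 to 2354 bp. Peaks of 20 kb or more numbered 15 to 29 per list (3% to 5.8%), against 0.187% to 0.423% of all autosomal peaks. The widest member, in Alb-D2KO adult, spanned 303671 bp of the zinc-finger and vomeronasal pseudogene cluster on chromosome 4 (147102618 to 147406288) at rank 270. The narrowest, also in Alb-D2KO adult, had 182 bp on chromosome 1 (84984569 to 84984750) at rank 431.

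**Figure D3:**
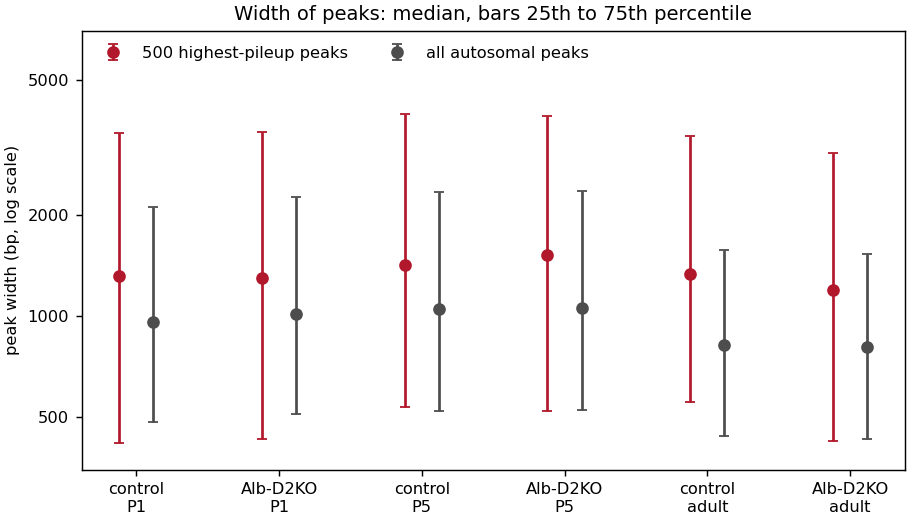
Width of peaks in bp (log scale) in each list, as the median (point) and the 25th to 75th percentile (bar), for the 500 highest-pileup peaks (red) and all autosomal peaks (grey). Medians are 1191 to 1512 bp in red and 807 to 1055 bp in grey, and the red bars reach further up in every list.

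Part of the peaks was gathered in few places. Of 2473 windows of 1 Mb on the autosomes, 496 held a member, and the 10 fullest held 919 of the 3000 (30.6%). At the other end, 131 windows held 1 member each. The 6 lists are pooled in these counts, so a place can count more than once. No like count was made over all autosomal peaks. The fullest windows were named after their counts were seen. Chromosomes 1, 8 and 4 held 15.5%, 13.5% and 12.2% of the members, and 8.89%, 5.66% and 6.65% of all autosomal peaks. Between 19.6% and 26.6% of the members of a list lay within 50 kb of an assembly gap of at least 1 kb, against 0.565% to 0.611% of all autosomal peaks. The first 5 Mb of sequenced chromosome, next to the centromere, held 11.2% to 14.8% of the members and 4.56% to 4.90% of all peaks. The last 5 Mb held 4% to 5% and 2.93% to 2.96%.

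The fullest window, on chromosome 1 from 85 to 86 Mb, held 259 members in 24 merged regions. It held 26 in control P1, 34 in Alb-D2KO P1, 32 in control P5, 31 in Alb-D2KO P5, 72 in control adult and 64 in Alb-D2KO adult. Both adult lists had more peaks than all neonatal ones, but they held 20 and 21 of the 24 regions against 18 to 21, and their peaks covered 286 and 317 kb against 372 to 397 kb. This is the cluster of Sp140 and Sp110 relatives, genes of nuclear body proteins with a long series of near copies, and C130026I21Rik (29 members), Sp140 (22), Gm6264 (22) and the pseudogene Gm18342 (16) were among the genes with the most members. None of the 259 was single-copy. Reads from near copies could be split among these genes, so the count of any single one is uncertain.

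The window on chromosome 8 from 20 to 21 Mb followed with 247 members in 79 regions. Only part of them were annotated to a gene, among these the predicted genes Gm21119 (19 members) and Gm15319 (17). Counts by list were 51 in control P1, 31 in Alb-D2KO P1, 37 in control P5, 59 in Alb-D2KO P5, 31 in control adult and 38 in Alb-D2KO adult. The counts had no order by age or genotype. The width covered was nevertheless smaller in both adult lists, at 43.5 kb in control and 40.4 kb in Alb-D2KO, against 65.1 to 117 kb in the neonatal lists. On chromosome 4 the windows from 145 to 148 Mb held 26, 56 and 58 members, with a median width of 52032, 43692 and 21804 bp. They hold Zfp979, Zfp980, Zfp981, Zfp985 and Zfp987, of a zinc-finger family known for repressing retrotransposons, beside vomeronasal receptor pseudogenes.

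Some clusters had high coverage although their sequence is present once in the reference. In the window of chromosome 17 from 3 to 4 Mb, with Pisd-ps2, 56 of 74 members were single-copy, and on chromosome 4 from 3 to 4 Mb 42 of 49. On chromosome 1 from 88 to 89 Mb all 34 members were single-copy. Of these, 21 were in or at Trpm8, the gene of a cold-sensing ion channel, with 2 to 5 per list and a fold of 1.55 to 1.88. The merged regions at Trpm8 nevertheless shared at least 30% of the 15-base words of the smaller peak with a region on another chromosome. Abcg2, the gene of an efflux transporter, on chromosome 6, had 18 members, 16 of them single-copy, at a fold of 2.08 to 3.70. A group of 9 regions on 2 chromosomes linked by shared 15-base words, the best-ranked on chromosome 4, had this same lowest and highest fold. Single-copy windows therefore do not make these places unlike all others. Dock2, a guanine nucleotide exchange factor of leukocytes on chromosome 11, had 2 members in every list, all single-copy, with 52 as its best rank. The number of copies of these places in the animals themselves was not tested.

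By the deposited annotation most members lay between genes. Of 500 peaks, 260 to 293 were intergenic, which was 58.6% in control P1 (54.2 to 62.8), 56.2% in Alb-D2KO P1, 57% in control P5, 57.6% in Alb-D2KO P5, 52% in control adult (47.6 to 56.3) and 57% in Alb-D2KO adult. The share over all autosomal peaks was 64.5% to 66.7%. Transcription starts took 13.2% to 19.8% of members against 3.57% to 4.16% of all peaks, and introns 14.6% to 17% against 20.9% to 22.1%. A wide peak is more likely to reach a start, and width was not held equal here.

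The 1308 members with a gene fell on 325 genes, 69 of which had members of all 6 lists. Predicted or unnamed genes (Gm and Rik) took 589 (45.0%), against 28.5% of all autosomal peaks with a gene, and pseudogenes of any type 276 (21.1%), against 7.71%. Zinc-finger genes had 31 members (2.37% against 1.01%) in 9 genes, vomeronasal receptors 26 (1.99% against 1.70%) in 10 genes, and cytochrome P450 genes 12 (0.917% against 0.466%) in Cyp2c53-ps, Cyp2j13 and Cyp3a41a. Olfactory receptors had 6 (0.459% against 2.52%) and the glucuronosyltransferases 1 (0.0765% against 0.0736%), in Ugt1a1. No member was annotated to a major urinary protein gene, Dio2 or Alb, which took 0.0392%, 0.000192% and 0.000384% of all autosomal peaks with a gene, nor to a gene with a ribosomal RNA symbol (0.0221%). No autosomal peak had a gene symbol starting with Hist, and other symbols of histone genes were not searched. Symbols starting with mt- were absent too, but those genes lie on the mitochondrial genome, so autosomal peaks could not carry them. Ribosomal sequence was nevertheless among the members. Gm42418 on chromosome 17, a lncRNA model known to overlap the 45S ribosomal RNA repeat of this assembly and named after its values were seen, had 1 member in each list but control adult, at rank 41 in both P1 lists, 36 in control P5, 38 in Alb-D2KO P5 and 66 in Alb-D2KO adult. These peaks lay within 39846399 to 39848611, with a fold of 1.21 to 1.32, and Gm26917 beside it had 1 member in Alb-D2KO P1. No window of a member matched the mitochondrial genome.

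Of the 25 genes with members of all lists and the smallest median rank, several held multi-copy sequence. Cntnap2, of the neurexin family, had 1 intronic peak per list of 360 to 431 bp at rank 22 to 30, with a fold of 5.38 to 6.38 and 2792 to 6711 positions. Gldnos, a lncRNA gene, had 1 of 338 to 406 bp with a fold of 3.999 to 5.155, and Gm12648 had 8 peaks with a fold of 2.69 to 7.05. Cd36, a fatty acid receptor that hepatocytes can express, had an intronic peak of 351 to 6516 bp whose rank was 86 in control P1, 55 in Alb-D2KO P1, 114 in control P5, 66 in Alb-D2KO P5, 42 in control adult and 188 in Alb-D2KO adult. In March1, a membrane-bound ubiquitin ligase, Nrg1, a growth factor, and Kcnh1, a potassium channel, the peaks had a median of 4276 to 10652 positions. All of these were multi-copy in every list.

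Others had a narrow peak. Spag17, of the sperm flagellum, had an intronic single-copy peak of 231 to 261 bp in every list, with rank 23 in control P1, 22 in Alb-D2KO P1, 27 in both P5 lists, and 45 and 48 in the adult, and a fold of 1.42 to 4.21. Ankar had one of 299 to 353 bp, and Gm525 one of 219 to 321 bp with a median of 42.25 positions and a fold of 1.54 to 1.80. An intronic peak of Smo, the Hedgehog signal transducer, had 608 to 1038 bp and a fold of 1.58 to 1.96. Cpeb4, an RNA-binding translation regulator, held a peak of 247 to 271 bp with up to 67450 positions. Gm49936 on chromosome 17 had 26 members, 4 in each neonatal and 5 in each adult list, and Sfi1, of the centrosome, had 22, with 7 in control adult and 9 in Alb-D2KO adult against 1 or 2 in each neonatal list. All lay in 1 merged region, of which members covered 72.3 to 73.1 kb in the neonatal lists, 44.4 kb in control adult and 49.7 kb in Alb-D2KO adult, so the adult lists had more and shorter peaks at the same place. Tmem267 had 2 or 3 per list, and Lsamp 1.

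Recurrence across the lists was then counted, to see how far the same places were at the top in both genotypes and at all ages. When members that overlapped by at least 1 bp were joined, the 3000 peaks made 826 regions. Of these, 170 (20.6%) held a member of all 6 lists and 272 (32.9%) of 1 list, with 135, 81, 90 and 78 regions of 2, 3, 4 and 5 lists. These counts rest on the overlap asked for, since 50% of both peaks gave 76 regions of 6 lists and 910 of 1, and ranking by −log10 p gave 543 regions of 1 list. The 170 regions held 1416 of the 3000 members, from 210 in control P1 to 275 in control adult. A merged region widens as lists join it, and the median width was 694 bp for 1 list and 4440 bp for 6. Multi-copy sequence made up 50.7%, 54.8%, 61.7%, 64.4%, 62.8% and 56.5% of regions of 1, 2, 3, 4, 5 and 6 lists. Single-copy sequence made up 16.7% to 23.5%, with 22.1% for 1 list and 23.5% for 6.

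**Figure D4:**
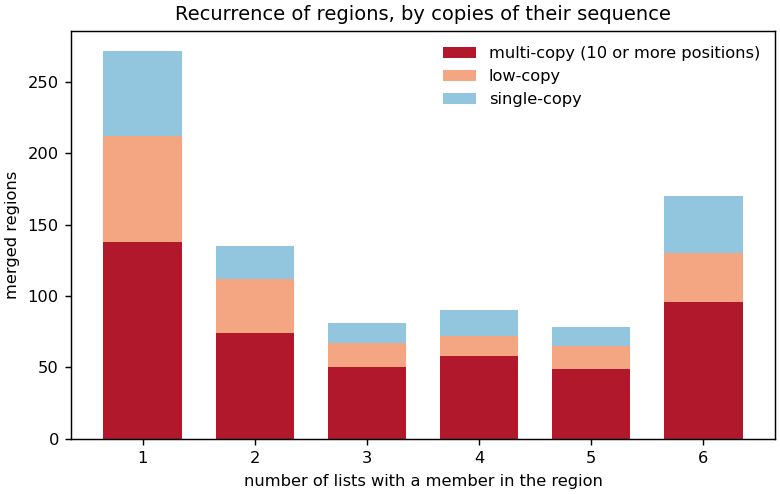
Number of merged regions by the number of lists that have a member in them, coloured by copies of their sequence in the reference. Regions of 1 list (272) and of all 6 lists (170) are the most frequent, and multi-copy sequence is the largest class in every bar.

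Most places among the 500 of 1 list alone had a peak in another list. For 145 of the 272 members in such regions, each of the other 5 lists had a peak at the same place with a Pileup below its own first 500. A peak in none of the other lists was found for 28 members, all of them among these 272. The like count over all autosomal peaks was not made. A peak in each of the other 5 lists was found for 76% of members in control P1, 82.4% in Alb-D2KO P1, 77.6% in control P5, 77.8% in Alb-D2KO P5, 88% in control adult and 82.8% in Alb-D2KO adult. The same share over all autosomal peaks was 31.6%, 32.7%, 31.5%, 31.3%, 29% and 29.3% in that order. Among peaks under 1000 bp it was 59.2% to 79.1% for members and 5.84% to 12.4% for all autosomal peaks, with narrow members also above narrow peaks at large.

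Members were then compared between pairs of lists. Of the Alb-D2KO members, 75.2% overlapped a control member at P1 (95% Wilson interval 71.2 to 78.8), 74.8% at P5 (70.8 to 78.4) and 69.4% in the adult (65.2 to 73.3). With 50% of both peaks these fell to 46.4%, 44.4% and 40.6%. Any control peak of the same age was overlapped by 95.2%, 92.6% and 90.8% of Alb-D2KO members, and by 65%, 64.7% and 56% of all autosomal Alb-D2KO peaks. Between P1 and P5 of a genotype the share was 71% to 73.6%. Of neonatal members, 54.4% to 63.8% overlapped an adult member, and of adult members 69% to 76.2% overlapped a neonatal one. Several short adult members can fall on 1 wide neonatal member, as at Sfi1, so these shares do not count the same places. How far this set the difference was not tested. There was 1 region with members of all 3 control lists and no Alb-D2KO list, and 1 with the reverse. The 4 neonatal lists and no adult list had a member in 34 regions, and both adult lists alone in 16. With 1 library per group these counts have no replicate check, and no like count was made over all peaks.

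Last, the members were set against 3 comparison lists, 1 per age, whose peaks mark places with more H3K9me3 signal in Alb-D2KO than in control. Of the Alb-D2KO members, 63.8% overlapped a comparison peak with −log10 p above 2 at P1 (319 of 500, 59.5 to 67.9), 50.2% at P5 (251, 45.8 to 54.6) and 62.2% in the adult (311, 57.9 to 66.3). The share over all autosomal Alb-D2KO peaks was 4.06%, 3.58% and 5.58% for these ages. The members' share fell to 33.6%, 19.8% and 29.6% where 50% of both peaks had to overlap, and to 45.6%, 33.4% and 42.6% with −log10 p above 3. In peaks of at least 1000 bp it was 70.4%, 53.9% and 69.1% for members and 4.85%, 4.47% and 5.73% for all.

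The overlap with the comparison lists was highest in multi-copy sequence. At P1 it was 79.0% of 272 multi-copy members, 46.4% of 110 low-copy and 44.9% of 118 single-copy members. At P5 it was 71.1%, 37.2% and 23.0%, and in the adult 81.5%, 46.8% and 28.1%. Among all autosomal Alb-D2KO peaks in multi-copy sequence the share was 6.10%, 5.62% and 7.61%. Control members overlapped the same comparison peaks nearly as often, at 56.8%, 46.8% and 55%. At P1 a comparison peak was found at 244 of the 376 Alb-D2KO members shared with control and at 75 of the 124 not shared. The counts were 187 of 374 and 64 of 126 for P5, and 218 of 347 and 93 of 153 for the adult. The lists over input and over control share the Alb-D2KO library, so these overlaps are not independent of the choice by Pileup. Places with less signal in Alb-D2KO were not analysed here.

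**Figure D5:**
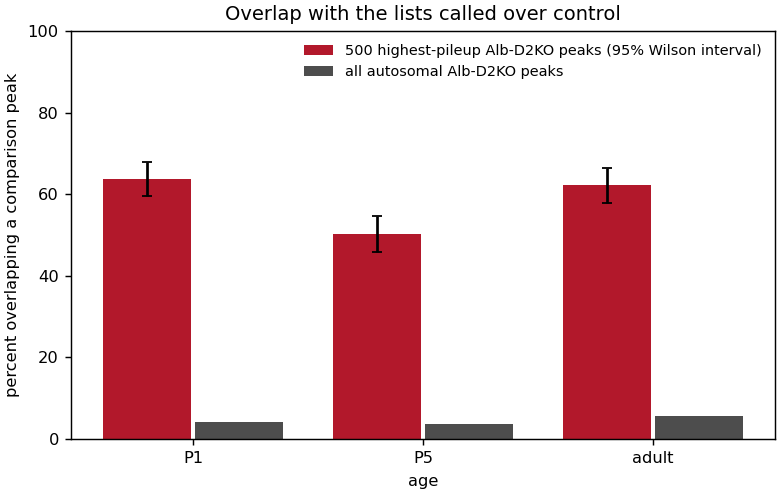
Percent of Alb-D2KO peaks that overlap a peak of the list called over control of the same age with −log10 p above 2, for the 500 highest-pileup peaks (red, bars are 95% Wilson intervals) and all autosomal Alb-D2KO peaks (grey). The red bars stand at 63.8%, 50.2% and 62.2%, the grey ones at 4.06%, 3.58% and 5.58%.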

How the data were processed

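H3K9me3 and input libraries of 12 mouse liver samples were aligned by the authors to mm10 with BWA in Partek Flow, and peaks were called with MACS2 in broad mode and annotated with GENCODE M24. The deposited lists hold for each peak its Pileup, a coverage signal in a scaling that the methods do not state, the −log10 of the p-value and q-value, and the fold enrichment, a linear ratio over background. Each of the 6 lists over input was treated as 1 library, since the methods describe more pools at P1, 3 adult livers and repeated sequencing without stating how these entered a list. Columns of the 3 comparison lists, which are the authors' own comparisons, hold the same measures; only −log10 p above 2 was used, to choose positions.

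The 500 autosomal peaks with the highest Pileup were taken from each list (ties by chromosome, then start), and overlap (1 bp) was computed with bedtools 2.31.1 and Python 3.11.15. Positions are 1-based with the end 1 base before the listed end: of 22052 transcripts matched to GENCODE M21, 99.9% had the reference start and 99.85% an end 1 base past it. Windows of 31 bases were counted on both strands of the GRCm38 primary assembly. A tandem offset of 2 to 300 bases was searched in the central 600 bases of a peak. Wilson 95% intervals cover counting error only, and depth is unknown. Scripts were tested on simulated data.

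Members and gene lists were chosen with earlier results of these data known. Named regions are the 10 with a member of all 6 lists and the smallest median rank, the first-ranked peak of each list, and the widest and narrowest members. Named genes are up to 25 with members of all 6 lists and the smallest median rank, and the 10 with the most members. Alternatives were 250 or 1000 peaks per list, peaks with −log10 p above 2 only, ranking by −log10 p, an overlap of 50% of both peaks, peaks joined within 1000 bp, windows of 25 bases, 2 or more positions, and comparison peaks with −log10 p above 3. A result on 1 kind of sequence is not reported here.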

Additional observations from a re-analysis of the deposited data

Results flagged for a closer look

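Peaks on X and Y were left out by the choice of autosomes, and some had a Pileup at or above that of the 500th autosomal peak of their list. On X there were 28 in control P1, 27 in Alb-D2KO P1, 34 in control P5, 26 in Alb-D2KO P5, 22 in control adult and 32 in Alb-D2KO adult. In all lists the highest of them lay at Cldn34d, at 76598589 to 76599126 in control P1, where its Pileup would have ranked 14 among the autosomal peaks. On Y there were 29 in control P1, 24 in Alb-D2KO P1, 26 in control P5, 22 in Alb-D2KO P5, 30 in control adult and 26 in Alb-D2KO adult. They were noted because they stand in data that the comparisons did not use, and the sex of the pooled animals was not analysed here.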

How the results depend on the processing

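No paired analysis was possible because the groups, with 1 library each, share fewer than 2 replicate numbers and the values come from no test. A contrast of genotypes over the 3 ages was not made, and no library could be left out. Of 60 alternative values, 19 stayed within 1.5 times a count, the interval of a share or the range of the median width over lists, 41 moved beyond it, and the cause was not tested. With 250 peaks per list, 92 regions held all 6 lists and 123 held 1, the median width was 1064 bp, 54.6% of members were multi-copy, and 69.6%, 56.8% and 67.6% of Alb-D2KO members overlapped a comparison peak at P1, P5 and adult. With 1000 peaks these were 356, 650, 1517 bp, 49.4%, 51.8%, 45.4% and 52.5%. With only peaks of −log10 p above 2, the width was 1571 bp, the multi-copy share 55.9%, and the comparison overlap 58% at P5 and 70.6% in the adult. Ranked by −log10 p, 543 regions held 1 list, 60.9% of members were intergenic and 67.0% multi-copy, control overlap was 63.8%, 66.2% and 62.2%, and comparison overlap 75%, 67% and 80.4%. Requiring 50% of both peaks gave 76 regions of 6 lists and 910 of 1, control overlap of 46.4%, 44.4% and 40.6%, and comparison overlap of 33.6%, 19.8% and 29.6%. Comparison peaks with −log10 p above 3 gave 45.6%, 33.4% and 42.6%. Joining peaks within 1000 bp gave a width of 2298 bp. Windows of 25 bases gave 55.1% multi-copy, and 2 or more positions 80.6%. Depth is unknown, so no detection limit can be given.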
